A study of Mus musculus with 8 samples.

Results

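The genes described here encode 9 transcription factors of the osteoblast, the cell that lays down bone: Runx2, Sp7, Dlx3, Dlx5, Dlx6, Msx1, Msx2, Atf4 and Twist1. They were chosen by symbol, with earlier results of these data known, and each matched 1 of the 55421 genes in the deposited count table. Their mRNA was measured in marrow-depleted tibiae and femurs of male wild-type C57BL/6 mice, aged 15 weeks at injection. Of the mice, 4 received saline vehicle and 4 a single intraperitoneal injection of doxorubicin at 10 mg/kg, an anthracycline that damages DNA, and all were killed 30 days later. Each library is poly-A RNA of all 4 bones of 1 mouse, with the epiphyses cut off, so replicates are separate animals. The series uses the drug as a model of chemotherapy-induced senescence. The comparison asked here is whether the factors that set osteoblast identity differed between doxorubicin and vehicle bones.

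Osteoblasts arise from mesenchymal progenitors through a chain of transcription factors. Runx2 commits progenitors to the lineage, and Sp7 (osterix) acts after it. The homeobox factors Dlx3, Dlx5, Dlx6, Msx1 and Msx2 respond to bone morphogenetic proteins (BMPs) and bind regulatory DNA of Runx2, Sp7 and the matrix genes. Atf4 serves amino acid supply and matrix synthesis in mature osteoblasts, and Twist1 is a basic helix-loop-helix factor that restrains Runx2 in early progenitors.

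Libraries held between 23699525 and 35747083 counts. Levels are CPM, counts relative to library size after scaling by the trimmed mean of M-values (TMM), and log2 fold changes are doxorubicin over vehicle. The 11 osteoblast matrix markers fixed for the check of the tissue were detected in all 8 libraries, as were the 10 osteocyte markers, and no marker of these lists was at 0. Of them, 10 of 11 and 8 of 10 had a log2 fold change above 0, with medians of 0.31 and 0.30. An unadjusted p under 0.05 in edgeR was found for 1 and 0 of them. Over all tested genes 57.2% lay above 0, the median was 0.04 and 5.36% had an unadjusted p under 0.05 in edgeR. RNA of other cells was present too. The 14 neutrophil markers summed to between 13900 and 24400 CPM in vehicle and 11300 and 23400 CPM in doxorubicin, the 14 erythroid markers to between 18800 and 36600 and between 14700 and 31700 CPM, and the 12 skeletal muscle markers to between 4800 and 27500 and between 15300 and 39500 CPM. Fold changes lay above 0 for 8 of 14 neutrophil, 0 of 14 erythroid and 12 of 12 muscle markers, with medians of 0.03, −0.33 and 0.40 on the log2 scale and 0 at an unadjusted p under 0.05 in edgeR. Of 8 adipocyte markers, which summed to between 595 and 692 CPM in vehicle and between 467 and 882 CPM in doxorubicin, 6 lay above 0 and 3 had an unadjusted p under 0.05 in edgeR, with a median of 0.38. Their mean log2 CPM was highest in doxorubicin 2, at 5.0, and lowest in vehicle 2, at 3.24, and the part of adipocyte RNA in the factors' values was not tested. In such bulk RNA, fewer cells of a type and less RNA per cell cannot be told apart.

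None of the 8 tested factors passed the test between the groups, and Msx2 had too few counts to be tested. In edgeR's quasi-likelihood test with Benjamini-Hochberg adjustment over 17035 genes, 0 of the 8 factors with enough counts had an adjusted p under 0.05, against 0 of all tested genes (0%). At an unadjusted p under 0.05 there were 2, Dlx5 and Msx1, both with higher means in doxorubicin, where 2.13% of all tested genes met that level in that direction (5.36% in either, 3.23% with lower means). DESeq2 and limma-voom each gave 0 factors at an adjusted p under 0.05 and 2 at an unadjusted p under 0.05; over all genes, 0.17% and 0% had an adjusted and 5.59% and 5.5% an unadjusted p under 0.05 in these tools. Of the 8 factors, 6 lay above and 2 below 0, with a median log2 fold change of 0.37, while 57.2% of all tested genes lay above 0 and their median was 0.04. The median of the factors was 0.22 without vehicle 2, 0.16 without doxorubicin 2 and 0.05 without both, an alternative chosen after the data had been seen.

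**Figure D1:**
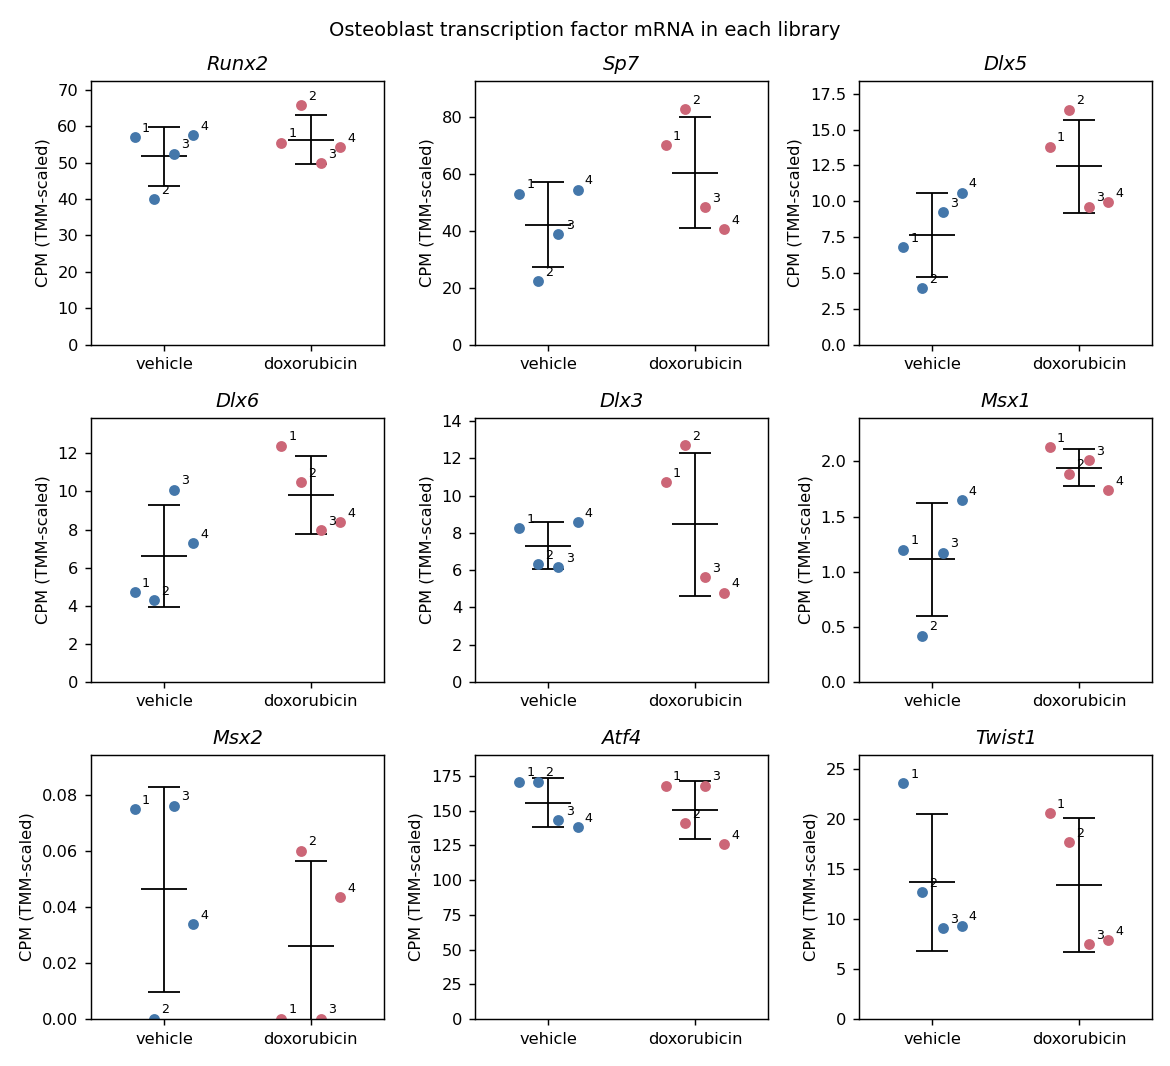
TMM-scaled CPM of each factor in the 4 vehicle (blue) and 4 doxorubicin (red) libraries, numbered by replicate, with the mean and SD as black bars (the SD bar of Msx2 is cut at 0). Vehicle 2 is the lowest library of the 8 for Runx2, Sp7, Dlx5, Dlx6 and Msx1, doxorubicin 2 is the highest for Runx2, Sp7, Dlx3 and Dlx5, and the groups are apart for Msx1, with vehicle up to 1.65 and doxorubicin from 1.74 CPM.

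Runx2, the runt-domain factor without which no osteoblasts form, was among the steadiest of the set. It measured 57.0, 40.0, 52.5 and 57.5 CPM in vehicle 1 to 4 and 55.5, 65.8, 49.9 and 54.2 CPM in doxorubicin 1 to 4. Vehicle 2 was the low and doxorubicin 2 the high library, and the other 6 lay between 49.9 and 57.5 CPM in both groups. The means were 51.7 ± 8.14 and 56.4 ± 6.73 CPM (SD, n = 4 each), a log2 fold change of 0.12 ± 0.14 (SE; adjusted p = 0.875 in edgeR). The 95% interval of that difference, −0.19 to 0.44, excludes a doubling and a halving of the mRNA. Without vehicle 2 it was 0.0036 and without both vehicle 2 and doxorubicin 2 it was −0.09.

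The Runx2 gene lies on the minus strand of chromosome 17, from 44495987 to 44814797 (GRCm38, GENCODE M21). Its distal promoter is shown because it carries matches to the binding motif of Runx proteins themselves. The RefSeq window (chr17:44814578-44814877, minus strand, GRCm38.p6) runs from 250 bases before to 50 after the start of transcription. Capitals mark the motif TGTGGT on either strand, all 3 of which read ACCACA here:
Runx2: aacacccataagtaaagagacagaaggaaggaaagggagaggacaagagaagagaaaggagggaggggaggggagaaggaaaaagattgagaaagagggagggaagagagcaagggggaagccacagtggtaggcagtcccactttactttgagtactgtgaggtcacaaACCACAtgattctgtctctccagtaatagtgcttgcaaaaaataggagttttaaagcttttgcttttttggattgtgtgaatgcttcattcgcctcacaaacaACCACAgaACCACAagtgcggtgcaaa
The matches begin at positions −80, 23 and 31 relative to the start. Across 32851 RefSeq promoter windows of the same length, 16.8% held at least 1 match and 0.183% held 3 or more. The window is also poor in CpG, with 2 such dinucleotides and 45.3% G and C, where all windows have medians of 7 and 52.7%. A match describes the letters of the window and is not a measured binding site.

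Sp7, a zinc-finger factor required downstream of Runx2 for osteoblasts to mature, was more variable. It measured 52.9, 22.3, 38.7 and 54.3 CPM in vehicle 1 to 4 and 69.9, 82.6, 48.3 and 40.5 CPM in doxorubicin 1 to 4. Doxorubicin 1 and 2 lay above all vehicle libraries, doxorubicin 3 and 4 lay among them, and vehicle 2 stood lowest. The means of 42.1 ± 14.9 and 60.3 ± 19.4 CPM (SD, n = 4 each) gave a log2 fold change of 0.52 ± 0.30 (SE; adjusted p = 0.856 in edgeR), with a 95% interval of −0.15 to 1.19. It was 0.30 without vehicle 2, 0.30 without doxorubicin 2 and 0.10 without both. Relative to Runx2 in the same library, Sp7 stood at between 0.558 and 0.945 times its CPM in vehicle and between 0.747 and 1.26 times in doxorubicin, with vehicle 2 again the lowest. Sp7 lies on the minus strand of chromosome 15, from 102356606 to 102367182.

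The 3 Dlx genes encode homeodomain proteins related to Drosophila Distal-less. Dlx5 and Dlx6 are neighbours on chromosome 6, Dlx6 at 6863334 to 6868568 on the plus strand and Dlx5 at 6877805 to 6882085 on the minus strand, so that their 3′ ends face each other across 9236 bases. Dlx5 promotes Runx2 and Sp7 transcription in osteoblast precursors. It measured 6.78, 3.92, 9.22 and 10.6 CPM in vehicle 1 to 4 and 13.8, 16.4, 9.62 and 9.94 CPM in doxorubicin 1 to 4. Doxorubicin 1 and 2 were the highest libraries, while doxorubicin 3 and 4 lay just below vehicle 4, so the groups overlapped through that 1 vehicle library. The log2 fold change was 0.70 ± 0.29 (SE), with an unadjusted p of 0.0385 and an adjusted p of 0.856 in edgeR. It was 0.47 without vehicle 2, 0.51 without doxorubicin 2 and 0.30 without both.

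Dlx6, the partner of Dlx5 in limb and craniofacial patterning, measured 4.72, 4.29, 10.1 and 7.29 CPM in vehicle 1 to 4 and 12.4, 10.5, 7.97 and 8.38 CPM in doxorubicin 1 to 4. Vehicle 3 lay inside the doxorubicin range and the other 3 vehicle libraries below it. Its means were 6.59 ± 2.66 and 9.80 ± 2.03 CPM (SD, n = 4 each), a log2 fold change of 0.56 ± 0.27 (SE; adjusted p = 0.856 in edgeR). Without vehicle 3 the difference was 0.81 and without vehicle 2 it was 0.39. The antisense transcript Dlx6os1 (Evf2), which overlaps Dlx6 on the opposite strand without sharing exon bases, measured between 3.92 and 6.14 CPM in vehicle and between 4.82 and 6.13 CPM in doxorubicin. Its log2 fold change was 0.21 ± 0.18 (SE; adjusted p = 0.856 in edgeR). Per CPM of Dlx6 in the same library, Dlx6os1 ranged from 0.611 to 0.913 in vehicle and from 0.496 to 0.628 in doxorubicin, ranges that overlap. No label says whether reads were counted by strand, so reads from the 2 strands may be mixed where the genes overlap.

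Dlx3, which acts on matrix genes in differentiated osteoblasts and osteocytes as well as in skin and teeth, split the doxorubicin group. It measured 8.24, 6.30, 6.14 and 8.57 CPM in vehicle 1 to 4 and 10.7, 12.7, 5.60 and 4.78 CPM in doxorubicin 1 to 4. Doxorubicin 1 and 2 lay above and doxorubicin 3 and 4 below all vehicle libraries. The log2 fold change of 0.21 ± 0.30 (SE; adjusted p = 0.890 in edgeR) was −0.09 without doxorubicin 2 and 0.40 without doxorubicin 4. Dlx3 lies on the plus strand of chromosome 11, from 95120119 to 95125296.

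Msx1 and Msx2, homeodomain proteins known from tooth, limb and skull development, stood at the bottom of the set. Msx1 was counted between 9 and 63 times per library. It measured 1.2, 0.420, 1.17 and 1.65 CPM in vehicle 1 to 4 and 2.13, 1.89, 2.01 and 1.74 CPM in doxorubicin 1 to 4. After TMM scaling, every doxorubicin library lay above every vehicle library. Msx1 was the 1 of the 8 tested factors whose groups did not overlap on this scale (3.59% of all tested genes, 1.64% with doxorubicin higher). By library size alone the groups overlapped, since vehicle 4 had 49 of 27561810 counts and doxorubicin 4 had 40 of 23699525. The nearest libraries overlapped in counting error: 95% Poisson intervals, which cover that error only, ran from 1.22 to 2.19 CPM for vehicle 4 and from 1.24 to 2.36 CPM for doxorubicin 4. The means of 1.11 ± 0.511 and 1.94 ± 0.168 CPM (SD, n = 4 each) gave a log2 fold change of 0.78 ± 0.33 (SE), with an unadjusted p of 0.0376 and an adjusted p of 0.856 in edgeR. The log2 fold change was 0.52 without vehicle 2, the library with 9 counts, and 0.53 without both libraries numbered 2.

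Msx2 was near the limit of detection. It had 2, 0, 3 and 1 counts in vehicle 1 to 4 and 0, 2, 0 and 1 in doxorubicin 1 to 4, too few to be tested. The 6 vehicle and 3 doxorubicin counts gave a ratio of 0.534, with a 95% counting interval from 0.0864 to 2.5, so no direction can be read. In the 3 libraries with no count, a floor of 3 counts stands at 0.140 CPM in vehicle 2, 0.130 CPM in doxorubicin 1 and 0.0988 CPM in doxorubicin 3, and the upper bounds of the two-sided 95% Poisson intervals at 0.172, 0.160 and 0.121 CPM. The promoters of the pair are shown because both are rich in G and C and differ little in the motif searched, whereas the mRNA levels differ widely. Capitals mark the GC box GGGCGG, the motif of Sp proteins, on either strand, in RefSeq windows of GRCm38.p6 on the minus strand:
Msx1 (chr5:37824536-37824835): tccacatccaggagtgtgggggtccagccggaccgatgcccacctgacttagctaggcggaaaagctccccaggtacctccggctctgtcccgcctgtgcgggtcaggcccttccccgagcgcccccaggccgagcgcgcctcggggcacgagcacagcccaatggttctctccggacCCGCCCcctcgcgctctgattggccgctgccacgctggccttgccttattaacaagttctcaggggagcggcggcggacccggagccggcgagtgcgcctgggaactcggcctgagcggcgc
Msx2 (chr13:53472731-53473030): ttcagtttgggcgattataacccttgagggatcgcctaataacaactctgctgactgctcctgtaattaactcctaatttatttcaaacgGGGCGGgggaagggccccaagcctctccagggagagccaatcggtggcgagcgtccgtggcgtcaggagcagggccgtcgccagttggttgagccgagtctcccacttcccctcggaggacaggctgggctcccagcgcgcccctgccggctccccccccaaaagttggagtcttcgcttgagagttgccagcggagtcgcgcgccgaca
Each window held 1 GC box, and 35.7% of all windows held at least 1. G and C made up 70.0% of the Msx1 and 61.0% of the Msx2 window, with 29 and 22 CpG. Neither held the homeodomain motif TAATTG on either strand, which 8.0% of all windows hold. These counts describe only the letters in the windows.

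Atf4, a leucine-zipper factor that is controlled mainly at translation and by phosphorylation, so that its mRNA is a partial readout, was the steadiest of the 9. It measured 171, 171, 143 and 138 CPM in vehicle 1 to 4 and 168, 141, 168 and 126 CPM in doxorubicin 1 to 4. The groups overlapped over nearly their whole range. With means of 156 ± 18.0 and 151 ± 20.7 CPM (SD, n = 4 each), the log2 fold change was −0.05 ± 0.14 (SE; adjusted p = 0.950 in edgeR) and its 95% interval ran from −0.35 to 0.26. Its coefficient of variation over the 8 libraries was 11.8%, against 13.6% for Runx2 and between 34.0% and 46.3% for Sp7, Dlx3, Dlx5, Dlx6, Msx1 and Twist1. Atf4 lies on the plus strand of chromosome 15, from 80255184 to 80257541.

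Twist1, on the plus strand of chromosome 12 from 33957671 to 33959829, was the most variable of the 8 tested factors. It measured 23.6, 12.7, 9.06 and 9.32 CPM in vehicle 1 to 4 and 20.6, 17.7, 7.51 and 7.90 CPM in doxorubicin 1 to 4. Vehicle 1 and doxorubicin 1 and 2 were high, and vehicle 3 and 4 and doxorubicin 3 and 4 were low, so the spread ran within the groups rather than between them. The log2 fold change was −0.02 ± 0.41 (SE; adjusted p = 0.991 in edgeR), and its 95% interval, −0.94 to 0.89, leaves room for nearly a doubling either way. It was 0.38 without vehicle 1 and −0.32 without doxorubicin 1.

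**Figure D2:**
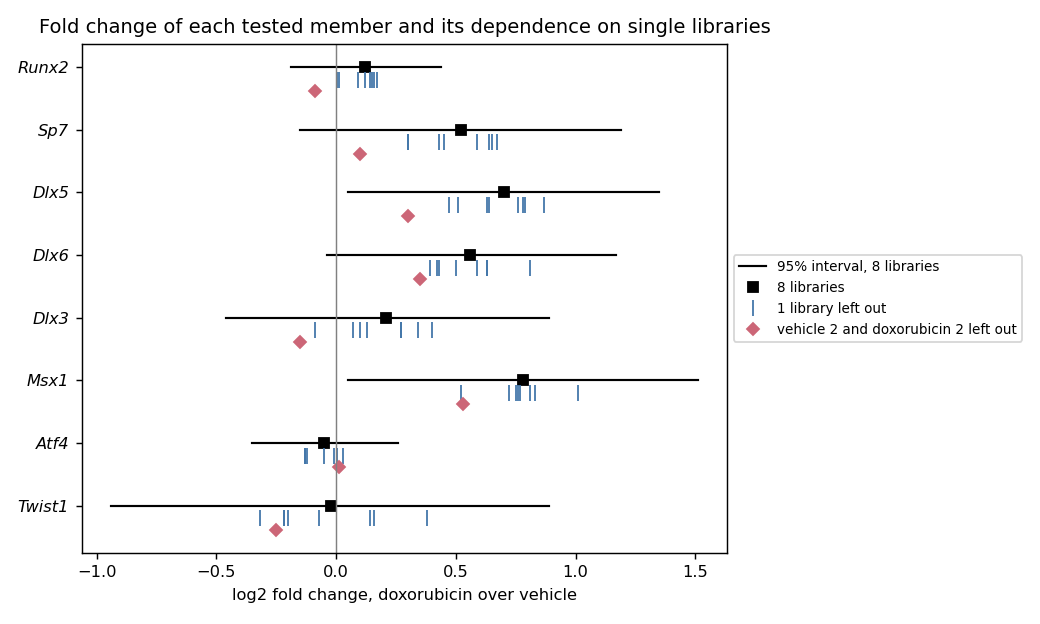
Log2 fold change (doxorubicin over vehicle) of the 8 tested factors with all libraries (square, with its 95% interval), with each library left out (blue ticks) and without vehicle 2 and doxorubicin 2 (red diamond). Msx1 and Dlx5 have intervals above 0, from 0.05, but the intervals are not adjusted for the number of genes tested (adjusted p = 0.856 for both in edgeR). The diamonds of Sp7, Dlx5, Dlx6 and Msx1 lie nearer to 0 than their squares.

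Levels of different genes were compared per kilobase of annotated exon. Over the 8 libraries Atf4 stood highest at 64.9 ± 7.69 CPM per kb, followed by Sp7 at 15.1 ± 5.52, Twist1 at 8.32 ± 3.86, Runx2 at 6.12 ± 0.831, Dlx5 at 4.44 ± 1.70, Dlx6 at 3.45 ± 1.17, Dlx3 at 3.02 ± 1.05, Msx1 at 0.493 ± 0.183 and Msx2 at 0.0110 ± 0.0101 CPM per kb (SD, n = 8 each). Atf4 exceeded Sp7 in 8 of 8 libraries, by 2.19 ± 0.63 log2 units (SD). Twist1 and Runx2 could not be ordered, since Twist1 was higher in 4 of 8 libraries, and their order turned when the longest transcript served as the length (8.32 and 8.36 CPM per kb). Dlx6 and Dlx3 could not be ordered either, with Dlx6 higher in 4 of 8. Dlx5 exceeded Dlx6 in 6 of 8 libraries, by 0.34 ± 0.29 log2 units (SD). Dlx3 exceeded Msx1 in 8 of 8 libraries, by 2.68 ± 0.78 log2 units (SD).

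Across the 8 libraries the factors did not all vary together. Pearson r of log2 CPM is given here as a description, since libraries share scaling and cell makeup, and the median over all pairs of 14784 genes with at least 1 CPM was 0. Runx2 and Sp7 had an r of 0.91, Dlx5 and Sp7 of 0.89, Dlx5 and Dlx6 of 0.89, Dlx5 and Msx1 of 0.90 and Runx2 and Dlx5 of 0.85. These 5 genes share the low values of vehicle 2. Twist1 went with Dlx3, at 0.75, but stood at 0.07 with Dlx5, −0.09 with Dlx6 and −0.04 with Msx1. Dlx3 was also at 0.74 with Sp7 and 0.61 with Runx2, and at 0.52 with Dlx5, 0.32 with Dlx6 and 0.29 with Msx1. Atf4 was at −0.45 with Runx2 and at −0.44 with Dlx5. The 28 pairs had a median r of 0.50, and of 0.48 after centring on the group means.

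**Figure D3:**
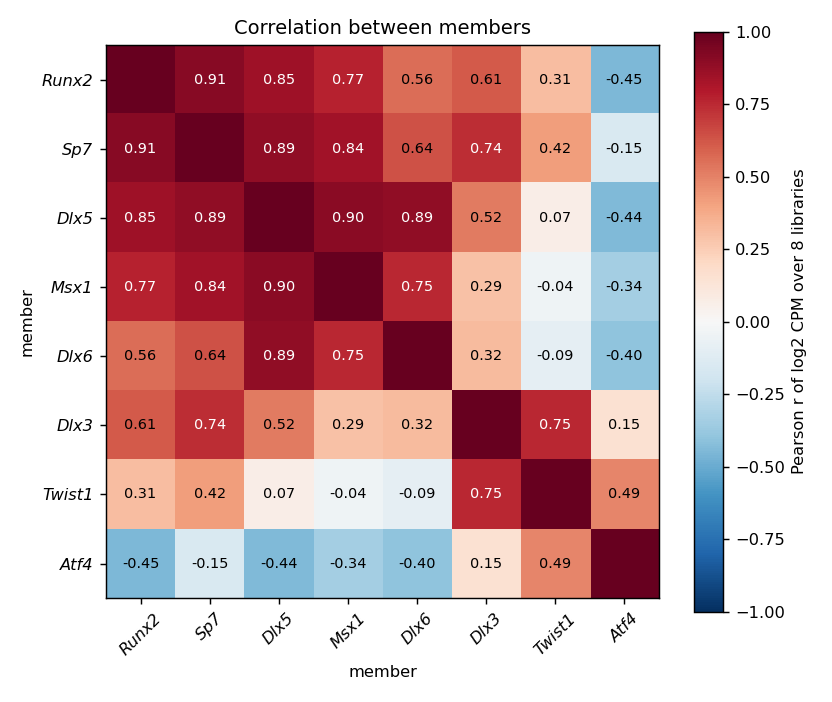
Pearson r of log2 CPM over the 8 libraries for each pair of the 8 tested factors, from blue (−1) to red (1). Runx2, Sp7, Dlx5, Msx1 and Dlx6 form a block of values from 0.56 to 0.91. Dlx3 reaches 0.75 with Twist1 and 0.74 with Sp7, and Atf4 is at or below 0.15 with all but Twist1 (0.49).

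The factors were next set against osteoblast matrix genes, scored as the mean log2 CPM of Col1a1, Col1a2, Alpl, Ibsp, Bglap, Bglap2, Sparc, Phospho1, Ifitm5, Pth1r and Smpd3. Dlx3 had a Pearson r of 0.91 with this score (adjusted p = 0.0286, two-sided exact permutation test, 24 relations) and a Spearman rho of 0.83 (adjusted p = 0.123, exact permutation). Sp7 had an r of 0.85 (adjusted p = 0.0286, exact permutation) and a rho of 0.90 (adjusted p = 0.110, exact permutation). Without doxorubicin 1 and 2, the 2 libraries farthest from the median score, r was 0.75 for Dlx3 and 0.67 for Sp7 (adjusted p = 0.854 for each, exact permutation), so neither passed the threshold over the other 6 libraries. Within the vehicle and doxorubicin groups r was 0.73 and 0.99 for Dlx3 and 0.83 and 0.97 for Sp7, over 4 libraries each. Twist1 and Runx2 followed with an r of 0.82 and 0.72 (adjusted p = 0.129 for each, exact permutation), and Dlx5, Dlx6, Msx1 and Atf4 lay between 0.19 and 0.61.

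With the marrow score (neutrophil and erythroid markers) Twist1 had the strongest relation, at an r of −0.79 (adjusted p = 0.129, exact permutation) and a rho of −0.79 (adjusted p = 0.168, exact permutation). No factor passed with the muscle score, where r ran from −0.20 to 0.36. As a covariate in edgeR, the muscle score gave a log2 fold change of 0.76 ± 0.26 for Dlx6, 0.78 ± 0.31 for Dlx5, 0.80 ± 0.35 for Msx1 and −0.19 ± 0.40 for Twist1 (SE). Adjusted p in edgeR lay between 0.847 and 0.947 for the 8 factors. With the matrix score as a covariate in edgeR, an alternative chosen after the data had been seen, the log2 fold change was 0.72 ± 0.33 for Msx1, 0.53 ± 0.27 for Dlx5, 0.30 ± 0.18 for Sp7, −0.13 ± 0.17 for Dlx3 and −0.39 ± 0.23 for Twist1 (SE), with adjusted p between 0.843 and 0.928 for the 8 factors. Chondrocyte markers, of which 11 of 11 were detected in all libraries, had a median log2 fold change of 1.26. Of these, 10 of 11 lay above 0 and 1 had an unadjusted p under 0.05 in edgeR (57.2% and 5.36% of all tested genes). Their summed level ran from 240 to 666 CPM in vehicle and from 249 to 673 CPM in doxorubicin, with Col11a1 the largest at a mean of 272 CPM. The chondrocyte score, their mean log2 CPM, averaged 2.04 in vehicle and 2.99 in doxorubicin. It was lowest in vehicle 2, at 0.97, and highest in doxorubicin 3, at 4.19. The part of cartilage RNA in the values of the Dlx and Msx genes was not tested beyond a covariate. With the chondrocyte score as that covariate, also chosen afterwards, the log2 fold change was 0.72 ± 0.35 for Dlx5 and 0.65 ± 0.39 for Msx1 (SE; adjusted p = 0.882 for each in edgeR).

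**Figure D4:**
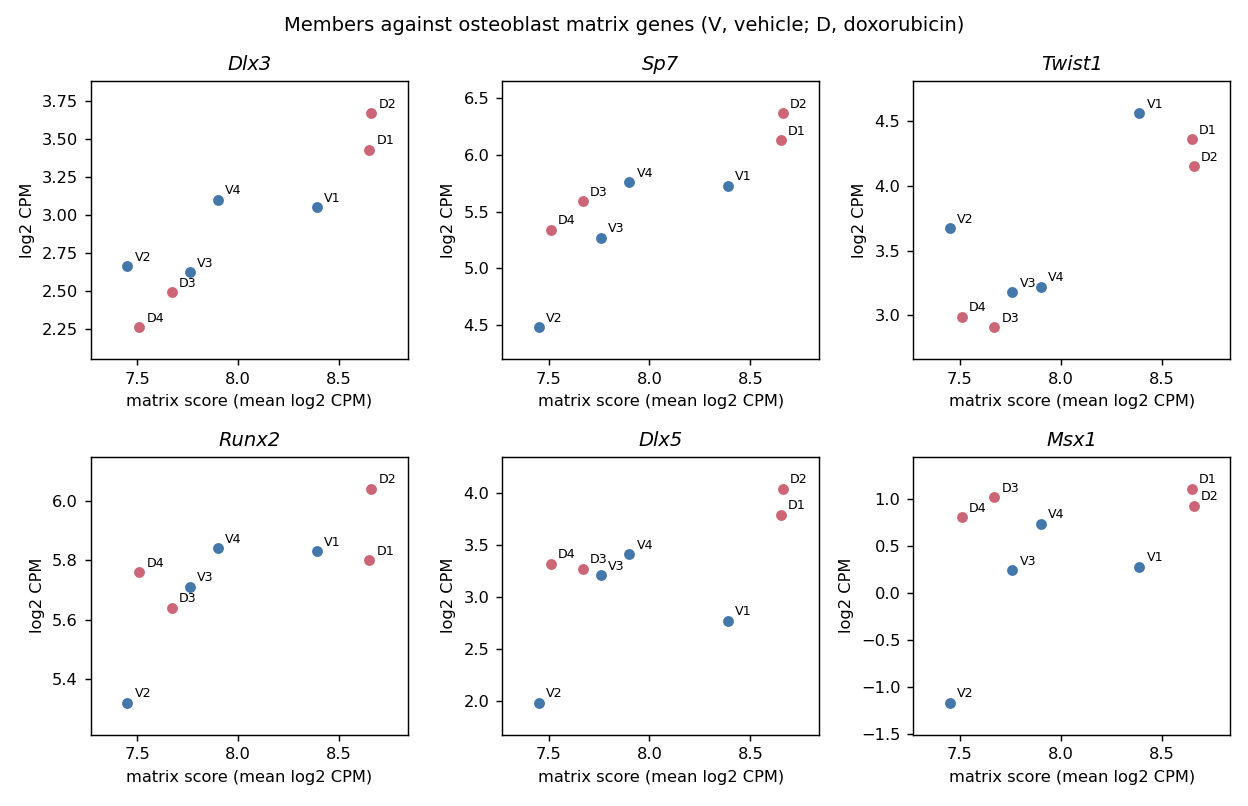
Log2 CPM of 6 factors (y) against the osteoblast matrix score (x, mean log2 CPM of 11 genes) in each library, V for vehicle in blue and D for doxorubicin in red. Dlx3 (r = 0.91) and Sp7 (r = 0.85) follow the score most closely, doxorubicin 1 and 2 lie at its upper end and vehicle 2 at its lower end, and Msx1 is lowest in vehicle 2.

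The genes whose log2 CPM was most like each factor over the 8 libraries were mostly of other kinds. For Sp7 they were Mmp28 (r = 0.991), Rapgefl1 (0.990) and Fbxl8 (0.988), and for Runx2 Tmem231 (0.988), Fignl2 (0.973) and Itpripl2 (0.971). Dlx3 was followed most closely by Slc2a10 (0.964), Bmp8a (0.962), a BMP family member, and Sema5a (0.958). Dlx5 had Dzip1l (0.982), Fzd8 (0.980), a Wnt receptor, and Bbs1 (0.980), and Dlx6 had Msc (0.968), Pawr (0.963) and Ggact (0.959). The values for Msx1 were 0.984 for Oscar, an osteoclast co-receptor, 0.982 for B3gntl1 and 0.981 for Slc39a1. Atf4 came with Dcaf10 (0.936), Decr2 (0.924) and Tnfrsf11b (0.922), which encodes osteoprotegerin, and Twist1 with S1pr1 (0.974), Spaca6 (0.971) and Pxdc1 (0.970). Over 8 libraries an r above 0.9 was reached by many genes for most factors. Of the 14784 genes with at least 1 CPM, 187 passed it with Sp7, 123 with Twist1 and 38 with Dlx6. With Atf4 only the 3 named genes did.

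Related genes were read from 6 lists, in none of which a gene had an adjusted p under 0.05 in edgeR. Over all tested genes, 57.2% lay above 0 and 5.36% had an unadjusted p under 0.05 in edgeR, 2.13% with doxorubicin higher. The groups did not overlap for 3.59% of all tested genes, 1.64% with doxorubicin higher. Of the 17 relatives by protein family, 11 were tested, 6 above and 5 below 0, with a median of 0.11, or −0.05 without vehicle 3, 0.01 without doxorubicin 2, 0.04 without vehicle 2 and 0.05 without doxorubicin 3; 2 had an unadjusted p under 0.05, both higher in doxorubicin, and DESeq2 gave 0 at an adjusted and 1 at an unadjusted p under 0.05. Sp6, a close relative of Sp7 known from teeth and skin, averaged 3.11 ± 0.814 CPM against 5.23 ± 1.29 CPM (SD, n = 4 each), and Twist2, which like Twist1 restrains osteoblasts, at 0.384 ± 0.121 and 0.666 ± 0.151 CPM. Atf5, an Atf4 relative, had a log2 fold change of 0.40 ± 0.21 (SE), or 0.21 without vehicle 3. Sp5 and Sp8 had no count, and Dlx1, Dlx2, Sp9 and Msx3 had too few to be tested.

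Partners and co-activators divided evenly, 11 above and 10 below 0 of 21 tested, with a median of 0.06 and 0 at an unadjusted p under 0.05 in edgeR or DESeq2. The median was −0.01, −0.03, −0.02 and −0.06 without vehicle 2, vehicle 3, doxorubicin 1 and doxorubicin 2 and 0.13 without doxorubicin 4. Prrx1, a limb mesenchyme homeobox factor, had a log2 fold change of 0.34 ± 0.16 (SE), or 0.17 without doxorubicin 1. Yap1 of the Hippo pathway was at 0.24 ± 0.17 (SE), or 0.11 without vehicle 3 and 0.14 without doxorubicin 1. The Atf4 partner Cebpb was at −0.54 ± 0.36 (SE), or −0.15 without vehicle 1 and −0.82 without vehicle 3. Cbfb, the obligate partner of Runx proteins, named after its values were seen, was at −0.03 ± 0.12 (SE).

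Among the antagonists 15 of 20 tested lay above 0, with a median of 0.07, and 3 had an unadjusted p under 0.05 in edgeR, all higher in doxorubicin. The median was 0.16 without vehicle 1, 0.03 without vehicle 3, 0.04 without vehicle 4, 0.12 without doxorubicin 3 and 0.11 without doxorubicin 4. Hey1, a repressor downstream of Notch and BMP that binds Runx2, averaged 4.46 ± 0.652 CPM in the vehicle libraries and 7.40 ± 1.06 CPM after doxorubicin (SD, n = 4 each), without overlap. Its log2 fold change was 0.73 ± 0.16 (SE), with an adjusted p of 0.703 in edgeR and 0.0491 in DESeq2, the 1 gene of the lists past 0.05 in that tool. Hdac4, a histone deacetylase that binds Runx2, averaged 18.3 ± 3.59 CPM against 26 ± 3.47 CPM (SD, n = 4 each), also without overlap. Sox8, a Sox9 relative, had a log2 fold change of 0.91 ± 0.38 (SE) at 0.238 ± 0.109 and 0.468 ± 0.137 CPM (SD, n = 4 each).

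In the BMP list 16 of 22 tested genes lay above 0, with a median of 0.10, which was −0.04 without doxorubicin 1, 0.02 without vehicle 3 or vehicle 4, 0.04 without doxorubicin 2 and 0.19 without doxorubicin 3. There 1 in each direction had an unadjusted p under 0.05 in edgeR, while DESeq2 gave 0 at an adjusted and 3 at an unadjusted p under 0.05. Grem1, a secreted BMP antagonist, had a log2 fold change of −0.50 ± 0.21, the ligand Bmp7 one of 0.63 ± 0.27 and Smad6, an inhibitory SMAD, one of 0.67 ± 0.31 (SE). For Bmp7 the means were 3.18 ± 0.977 and 4.93 ± 1.41 CPM (SD, n = 4 each).

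The matrix and mineralisation targets, all 24 of them tested, had 18 above and 6 below 0 and a median of 0.22, which was −0.06 without both libraries numbered 2, 0.0029 without doxorubicin 1 and 0.02 without doxorubicin 2. Leaving out a vehicle library gave 0.10 (vehicle 2), 0.13 (vehicle 3 or 4) or 0.36 (vehicle 1), and without doxorubicin 4 it was 0.39. The list shares 11 genes with the matrix score. Pth1r, the parathyroid hormone receptor, had the smallest p, with a log2 fold change of 0.54 ± 0.21 (SE). Next by p came Dmp1, a matrix protein of osteocytes, at −1.03 ± 0.48 (SE), or −0.62 without vehicle 1. Phospho1, a phosphatase that starts mineralisation, was at 0.52 ± 0.27 (SE), or 0.30 without vehicle 3. In edgeR 1 had an unadjusted p under 0.05, and DESeq2 gave 0 at an adjusted and 2 at an unadjusted p under 0.05.

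Of 41 ATF4 target genes, which serve amino acid transport, amino acid synthesis and the stress response, 39 were tested, 28 above and 11 below 0, with a median of 0.12. It was −0.0022 without doxorubicin 3 and 0.03 without vehicle 3. In edgeR 1 gene in each direction had an unadjusted p under 0.05, and DESeq2 gave 0 at an adjusted and 2 at an unadjusted p under 0.05. Slc7a11, the cystine importer, averaged 14.3 ± 6.16 CPM in the vehicle libraries and 5.91 ± 1.59 CPM after doxorubicin (SD, n = 4 each), a log2 fold change of −1.27 ± 0.33 (SE; adjusted p = 0.706 in edgeR). Trib3, a pseudokinase that feeds back on ATF4, averaged 0.658 ± 0.165 CPM against 1.79 ± 1.31 CPM (SD, n = 4 each), without overlap. Its log2 fold change of 1.43 ± 0.45 (SE) was 0.75 without doxorubicin 3. The groups of Eif4ebp1, a brake on translation, named after its values were seen, did not overlap either, at 0.22 ± 0.10 (SE). Sars, the cytosolic seryl-tRNA synthetase, was at 0.24 ± 0.11 (SE), or 0.15 without doxorubicin 3.

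**Figure D5:**
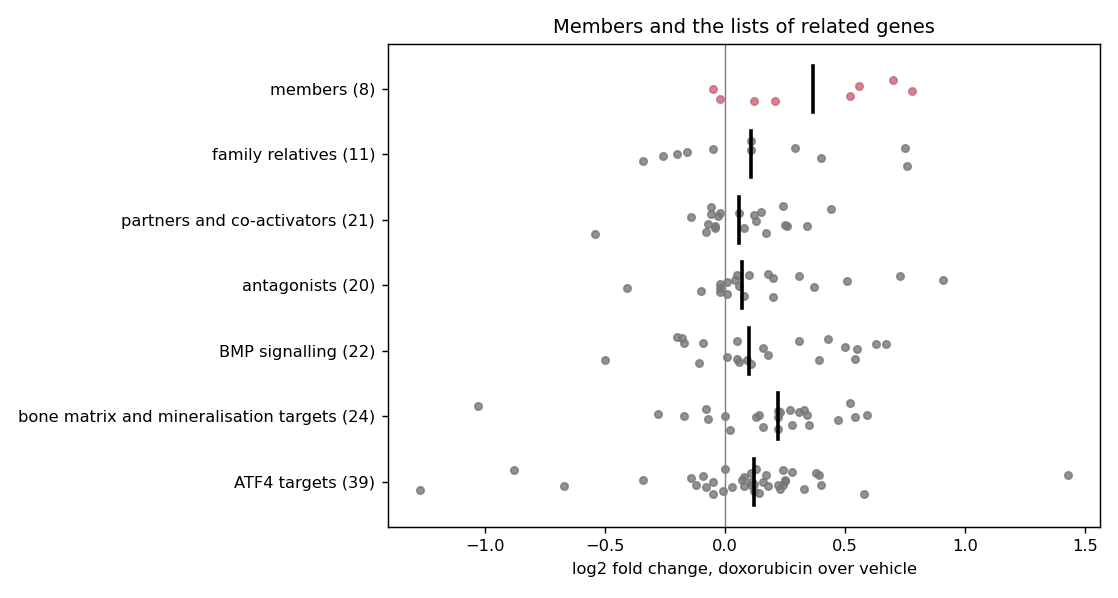
Log2 fold change (doxorubicin over vehicle) of the 8 tested factors (red) and of the tested genes of 6 related lists (grey), 1 point per gene with random vertical spread; the black line is the median and the number tested stands in brackets. The factors have a median of 0.37 and the lists medians between 0.06 and 0.22, and the outermost points are Slc7a11 (−1.27) and Trib3 (1.43).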

How the data were processed

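Poly-A RNA from marrow-depleted tibiae and femurs of 8 mice was sequenced with a stranded kit, per the labels' protocols. The deposited values, all whole numbers, were treated as estimated counts per gene rounded by the authors, since the submitters' processing notes name RSEM. Those notes give STAR 2.5.3a and RSEM 1.3.0 with no role, and the build GRCh38, which is human, although the identifiers are of mouse genes; no label states the annotation release or whether strand and molecular identifiers were used. The 9 members and all lists were chosen with earlier results of these data known.

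Counts were filtered by filterByExpr (minimum 10, total 15), scaled by TMM and tested with edgeR 4.0.16 (robust quasi-likelihood, two-sided, Benjamini-Hochberg) in R 4.3.3 over 17035 genes, and checked on simulated data. The alternatives were limma-voom (limma 3.58.1), DESeq2 1.42.0, other scalings, filters, covariates, a replicate block and leaving out libraries. SE was derived from the F statistic. Log2 CPM used a prior count of 0.5. Libraries held 23699525 to 35747083 counts. Positions and exon lengths are from GENCODE M21 (GRCm38). Promoter windows, from RefSeq (GRCm38.p6), matched 5 of 9 factors. Motifs searched on both strands were TGTGGT for RUNX, GGGCGG for SP, TAATTG for DLX and MSX, CANNTG for TWIST and TGATGNAA for ATF4. The text names all members, the 3 genes of each list with the smallest p and the 3 genes most like each member (mean of at least 1 CPM); a symbol with several identifiers went to its only protein-coding row with at least 10 counts.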

Additional observations from a re-analysis of the deposited data

How the results depend on the processing

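The count of factors past the threshold was 0 under every alternative run, including an adjusted p threshold of 0.1, and their adjusted p lay between 0.398 (Msx1) and 1. Over all genes the count of 0 became 1 with no filter on low counts and 29 in DESeq2, and stayed 0 with each library left out, where between 621 and 1784 genes had an unadjusted p under 0.05. The count among the antagonists became 1 in DESeq2. Whether replicate numbers pair the samples is not known. Deviations of same-numbered libraries correlated at 0.30, −0.23, 0.40 and 0.074. For vehicle 1, 3 and 4, but not vehicle 2, the best match was the doxorubicin library of the same number. With the replicate block 0 genes and 0 factors passed. At an unadjusted p under 0.05 in edgeR there were 1466 genes and 1 factor with the block, against 913 genes and 2 factors without it. The count of factors was 0 with library size alone, with the chondrocyte or matrix covariate and without both libraries numbered 2. It was also 0 without vehicle 1, doxorubicin 1 or doxorubicin 2. It was 1 with the marrow covariate and without vehicle 2 or doxorubicin 3, 3 with the muscle covariate and 2 in the other settings.

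Directions turned for 4 factors near 0. The log2 fold change of Dlx3 was −0.0035 with the marrow covariate, −0.13 with the matrix covariate and −0.15 without both libraries numbered 2, where Runx2 was −0.09 and Atf4 0.01. With 1 library left out it ran from −0.09 to 0.40 for Dlx3, from −0.13 to 0.03 for Atf4 (0.0022 without vehicle 1) and from −0.32 to 0.38 for Twist1 (0.14 without doxorubicin 3, 0.16 without doxorubicin 4). The median of the family relatives was −0.18 with no filter, −0.05 with 1 CPM in 4 libraries, −0.03 without both libraries numbered 2 and between −0.05 and 0.16 with 1 library left out. That of the BMP list was −0.03 with the marrow covariate, and that of the partners −0.01 with library size alone, −0.02 with the marrow covariate, −0.06 with the matrix covariate and −0.10 without both libraries numbered 2. The cause was not tested.

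No correlation that changed sign had passed the threshold; the highest was Msx1 with the chondrocyte score, at 0.62. Without the 2 farthest libraries Dlx6 had −0.25 with the matrix score, and −0.29 (Runx2), −0.18 (Sp7), −0.44 (Dlx3), 0.21 (Dlx6) and −0.12 (Twist1) stood with the muscle score. Centring on the group means gave 0.08 (Dlx6) and 0.13 (Msx1) with marrow and −0.10 (Runx2), −0.03 (Sp7) and −0.18 (Msx1) with muscle. With the chondrocyte score, added after the data were seen, values were −0.29 (Dlx5), −0.42 (Dlx6), −0.27 (Msx1) and 0.44 (Twist1) without 2 libraries and −0.17 (Dlx6) when centred. When centred, the r with the matrix score was 0.86 for Sp7 (adjusted p = 0.0824, exact permutation) and 0.92 for Dlx3 (adjusted p = 0.0446, exact permutation). Small changes of the factors could be missed at this depth and number of mice. The SE of the log2 fold change ran from 0.14 for Runx2 and Atf4 to 0.41 for Twist1, with 0.33 for Msx1, and Msx2 was not tested.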
